A study of Mus musculus with 8 samples.

Results

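NLR proteins are intracellular sensors and regulators of innate immunity, and 5 of their genes, Nlrc3, Nlrc5, Nlrx1, Nod1 and Nod2, are described here in follicular B cells of mouse spleen. The genes were found in a table of 43629 Ensembl genes by matching identifiers to these symbols, and all 5 were present and had enough counts to be tested. Nlrc3 was chosen by its lower level in the GFP-ZFP36L1 group of these same libraries, so its values are given as a description without a test. The other 4 were added as relatives, with earlier results of these data known. The question was whether other NLR genes shared the lower level of Nlrc3.

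The data are 8 RNA-seq libraries of sorted follicular B cells, the mature B cells that circulate through lymphoid follicles, with 4 libraries in each group. The labels give the sort as positive for CD93, a marker more often used to set immature B cells apart, and Cd93 was at 8.4 to 13.2 CPM in controls and 8.87 to 14.6 CPM in the labelled group. The control libraries carried the allele Rosa26GFPZFP36L1, and the other group carried this allele and CD23cre/+. CD23, encoded by Fcer2a, is switched on in mature B cells, so a Cre driven from it acts in that lineage. The control group therefore carries the same Rosa26 allele, no group has the Cre alone, and Cre and the expressed protein cannot be told apart. ZFP36L1 binds AU-rich elements in the 3' untranslated region (3' UTR) of mRNAs and promotes their decay. Whether each library is a different mouse is not stated by the labels, so the tests measure only the spread between these libraries, which may be technical.

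An NLR protein combines a nucleotide-binding NACHT domain with leucine-rich repeats. NOD1 and NOD2 recognise fragments of bacterial peptidoglycan and signal through the kinase RIPK2 to NF-kB. NLRC5 and its relative CIITA act in the nucleus, where they switch on MHC class I and MHC class II genes. NLRC3 dampens signalling through TRAF6, STING and phosphoinositide 3-kinase and is known mostly from T cells and macrophages. NLRX1 is a mitochondrial member that restrains antiviral signalling.

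Totals ran from 38947758 to 51024233 counts per library. Levels are counts per 1000000 (CPM) on scaled library sizes, and each log2 fold change sets the GFP-ZFP36L1 group over the controls. Genes were tested with edgeR (quasi-likelihood) and p-values adjusted by Benjamini-Hochberg over all tested genes, and a gene is called where the adjusted p is under 0.05. Zfp36l1 itself ran against its label, with 547 ± 35.1 CPM among controls and 439 ± 28.6 CPM in the libraries labelled GFP-ZFP36L1 (SD, n = 4 each). The adjusted p of Zfp36l1 was 0.0348, and the call held in 1 of 8 fits without 1 library. The second group is therefore named by its label, as the labelled libraries. Gt(ROSA)26Sor, the noncoding gene at the Rosa26 locus, had 16.9 ± 2.58 CPM in controls against 3.90 ± 0.604 in labelled libraries. Its groups did not overlap, and edgeR called it as lower (log2 fold change -2.11, adjusted p 4.14e-05). Unlike that of Zfp36l1, this call held in 8 of 8 fits without 1 library. Endogenous and allele-derived Zfp36l1 RNA were not separated. On component 1 of a principal component analysis, with 37.3% of the variance, the controls lay at -23.1, -12.9, -6.8 and -3.3 and the labelled libraries at -7.5, 7.4, 13.3 and 33.0, each in the order of the number in the sample title. The position thus followed title number within both groups as well as group. With a linear term for that number the log2 fold changes were -0.67 for Nlrc3, -0.34 for Nod1, 0.58 for Nod2, 0.01 for Nlrc5 and 0.15 for Nlrx1. B cell markers held 13900 to 14900 CPM in sum in the controls and 12600 to 14100 CPM in the labelled libraries. Of these 10 genes 8 had a negative log2 fold change and 1 was called. Over all tested genes the shares were 52.1% and 3.12%. The called gene was Pax5, the transcription factor of B cell identity, at 245 ± 8.06 and 210 ± 6.82 CPM (adjusted p 0.0405). The call of Pax5 held in 3 of 8 fits without 1 library. Cd22 and Fcer2a, with log2 fold changes of -0.23 ± 0.07 and -0.27 ± 0.08 (SE), were not called. Both were without overlap between groups, as were 4.98% of all tested genes in this direction. The part of these genes in the results below was not tested.

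Nlrc3 (ENSMUSG00000049871) is a minus-strand gene of chromosome 16 (3945007 to 3976632, GRCm38). Its level was 40.8, 45.2, 44.4 and 49.1 CPM in control replicates 1 to 4 and 28.8, 29.3, 26.3 and 29.6 CPM in labelled replicates 1 to 4. The groups did not overlap, as was so for 4.98% of all tested genes in this direction, from which nothing is read because the gene was chosen on it. The highest labelled library lay well below the lowest control, and the labelled libraries clustered more tightly than the controls. The means were 44.9 ± 3.42 CPM in controls against 28.5 ± 1.52 in labelled libraries (SD, n = 4 each), which is 0.636 of the control level. On the log2 scale the fold change was -0.65 ± 0.07 (SE). Of 13035 tested genes, 133 had a lower log2 fold change, or 1.02%. Leaving out any 1 library moved the value between -0.70 and -0.61, and without labelled replicate 4, which lay at the end of component 1, it was -0.67. In these bulk samples fewer cells with Nlrc3 and less Nlrc3 RNA per cell cannot be told apart.

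Of the peptidoglycan sensors, Nod2 rose, and Nod1 had a negative log2 fold change that did not pass the test. Nod1 (ENSMUSG00000038058, chromosome 6, 54923949 to 54972612, minus strand) had 47.4, 51.4, 41.5 and 51.4 CPM in controls against 40.1, 42.2, 38.7 and 27.1 in labelled libraries. The groups overlapped slightly, since labelled replicate 2 exceeded the lowest control, and labelled replicate 4 was far below the other 3. The log2 fold change of Nod1 was -0.37 ± 0.12 (SE) and the adjusted p 0.141, so it did not pass the threshold of 0.05. Its 95% interval ran from -0.65 to -0.10. Without labelled replicate 4 the log2 fold change of Nod1 was -0.24, with an adjusted p of 0.151.

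Nod2 (ENSMUSG00000055994, chromosome 8, 88647315 to 88688474, plus strand) was weakly expressed, with 82 to 149 counts in the controls and 171 to 199 counts in the labelled libraries. Its level was 1.96, 3.0, 3.12 and 2.78 CPM in controls against 4.01, 4.09, 3.94 and 4.70 in labelled libraries. Every labelled library lay above every control, and control replicate 1 was the lowest of all. Nod2 rose, by a log2 fold change of 0.62 ± 0.15 (SE) or 1.54-fold, with an adjusted p of 0.0469. It was the only 1 of the 4 members other than Nlrc3 that was called, where 3.12% of all tested genes were called, 1.83% as higher and 1.30% as lower. The call is near the threshold. It was lost without any 1 library except labelled replicate 1, at adjusted p from 0.0735 to 0.11, while the log2 fold change stayed between 0.50 and 0.69. Control replicate 1 gave the low end, since without it the value was 0.50.

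**Figure D1:**
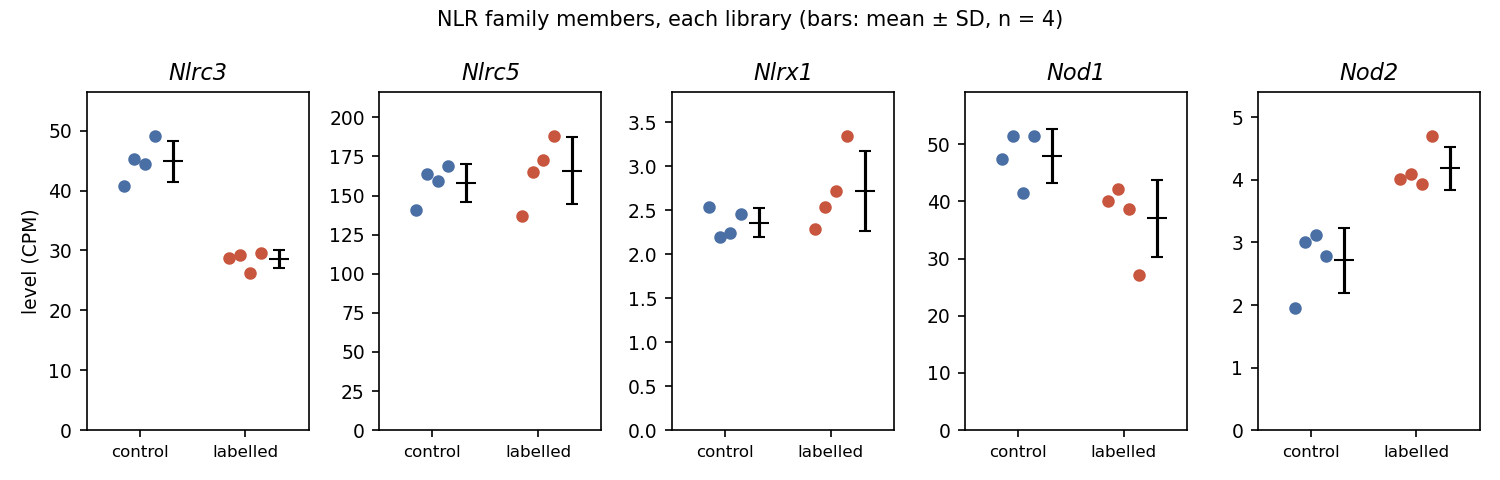
Level of each member in CPM (vertical axis, from 0) in the 4 control libraries (blue) and the 4 libraries labelled GFP-ZFP36L1 (red), with the mean and SD as black bars. Nlrc3 lay between 26.3 and 29.6 CPM in the labelled libraries and at or above 40.8 CPM in the controls, while Nod2 was higher in every labelled library.

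Nlrc5, the MHC class I transactivator, was the most abundant member in CPM and did not pass the test. Nlrc5 (ENSMUSG00000074151, chromosome 8, 94434356 to 94527272, plus strand) had 141, 164, 159 and 169 CPM in controls against 137, 165, 173 and 188 in labelled libraries. The groups overlapped widely, with labelled replicate 1 lowest and labelled replicate 4 highest of all 8. The log2 fold change of Nlrc5 was 0.07 ± 0.09 (SE), with a 95% interval from -0.13 to 0.27 and an adjusted p of 0.764. Without labelled replicate 1 it was 0.16, and without labelled replicate 4 it was 0.01.

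Nlrx1 (ENSMUSG00000032109, chromosome 9, 44252717 to 44268599, minus strand), the mitochondrial member, was the least abundant of the 5 per length, with 94 to 137 counts per library. It had 2.53, 2.19, 2.24 and 2.46 CPM in controls against 2.28, 2.53, 2.72 and 3.34 in labelled libraries. Labelled replicate 4 was the highest, and the remaining labelled libraries were close to the controls. The log2 fold change of Nlrx1 was 0.21 ± 0.14 (SE), with a 95% interval from -0.11 to 0.52 and an adjusted p of 0.511. Without labelled replicate 4 the value was 0.10. The antisense gene Gm10686 shares 683 bp of exon with Nlrx1, and 9330175E14Rik on the other strand shares 78 bp with Nlrc5. Whether counting used strand is not stated in the sources used here, so reads in these stretches cannot be assigned. Apart from Nlrc3, which was chosen on this contrast, groups without overlap were found for 1 of the 4 other members, Nod2, and for 11.2% of all tested genes. The log2 fold change was negative for Nlrc3 and Nod1 and positive for Nlrc5, Nlrx1 and Nod2. Whether the change of Nlrc3 differs from those of the other members was not tested.

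The 3' UTRs of the members were read for UAUUUAU, the core site of the ZFP36 family, written TATTTAT on the sense strand. Nlrc3 held none in a 3' UTR of 2442 nt, although 44.1% of the 1703 tested genes with a 3' UTR of 0.8 to 1.25 times that length held at least 1. Nlrx1 and Nod1, with 501 and 988 nt, also held none. Nod2, which was higher in the labelled libraries, held 2 in 1508 nt, and Nlrc5 held 1 in 1197 nt, where 33.8% and 28.5% of genes of similar length held the heptamer. Over all 10961 tested genes with a 3' UTR the share was 29.7%. A match describes these letters and is not a measured binding site. The shorter core ATTTA, which lies inside each TATTTAT, occurred 1 time in Nlrc3, 4 times in Nod2, 3 times in Nlrc5 and 1 time in Nod1, and 69.7% of the tested genes with a 3' UTR held it. Of genes with a 3' UTR of similar length it was held by 92.9% for Nlrc3, 84.2% for Nod2, 78.9% for Nlrc5 and 74.1% for Nod1. Counting sites over the 3' UTRs of all coding transcripts left the number of heptamers of each member as it was. Nod1, like Nlrc3, held the shorter motif alone, and its site is not shown. The sites below are shown because Nod2 and Nlrc5 hold the longer motif and Nlrc3 the shorter one alone, with TATTTAT in capitals for Nod2 and Nlrc5, ATTTA in capitals for Nlrc3, and GRCm38 positions.
Nod2 site at chr8:88688193-88688222, plus strand: cagctccatttTATTTATgacaatgcttta
Nod2 site at chr8:88688368-88688397, plus strand: aagcgggttaaTATTTATaaatggcactgt
Nlrc5 site at chr8:94526808-94526837, plus strand: ttttttttaagTATTTATaagcaccttctg
Nlrc3 site at chr16:3945333-3945362, minus strand: caaagagattagATTTAagccaagaatagc

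Of 26 other NLR genes, 7 had enough counts to be tested, and edgeR called 0 of them, where 3.12% of all tested genes were called. DESeq2 and limma voom also called 0, against 6.89% and 2.85% of all genes, and 2 of the 7 had an unadjusted p under 0.05, against 17.3% of all tested genes. The median log2 fold change of these 7 was 0.03, against -0.007 over all tested genes. Ciita, the MHC class II transactivator, was at 564, 627, 638 and 667 CPM in controls against 578, 527, 546 and 544 in labelled libraries. The groups of Ciita overlapped through labelled replicate 1, its log2 fold change was -0.19 ± 0.07 (SE), and its adjusted p was 0.166. Dexi, on the opposite strand, shares 329 bp of exon with Ciita. With a linear term for the title number Ciita was called, at an adjusted p of 0.0426. Nlrc4, which assembles an inflammasome with NAIP proteins, had 58.7 ± 3.27 CPM in controls against 61.9 ± 5.66 in labelled libraries (SD, n = 4 each).

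The flagellin and secretion-system sensors Naip2, Naip5 and Naip6 had log2 fold changes of 0.03 ± 0.08, 0.00 ± 0.11 and -0.11 ± 0.15 (SE). These paralogs are similar in sequence and lie beside each other on chromosome 13, so the split of reads between them is uncertain. Nlrp10 had 8.82 ± 1.17 CPM in controls against 9.15 ± 0.476 in labelled libraries. Nlrp1b, an inflammasome sensor, was near the lower limit of detection, at 0.191, 0.322, 0.309 and 0.246 CPM in controls against 0.345, 0.329, 0.600 and 0.975 in labelled libraries. Its groups did not overlap, as was the case for 6.24% of all tested genes in this direction, but the gap was small and labelled replicates 3 and 4 carried most of the difference. The log2 fold change of Nlrp1b was 1.04 ± 0.38 (SE) and the adjusted p 0.172. Without labelled replicate 4 it was 0.65, with an adjusted p of 0.414. The other 19 were under the filter. Of these, 12, among them Nlrp5, Nlrp14 and the Nlrp9 genes, had 0 counts in all libraries, which allows a level of up to 0.00854 CPM over the 8 libraries (3 counts, counting error only). The remaining 7 had at most 20 counts over all libraries, and Nlrp3, the sensor of the best-known inflammasome, had 5.

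**Figure D2:**
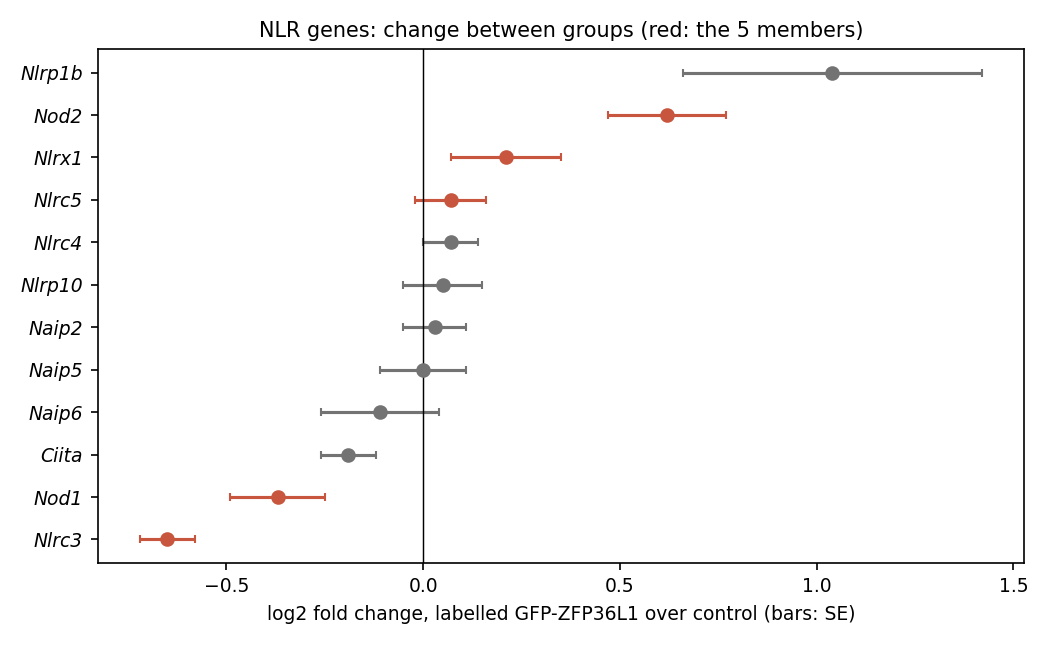
Log2 fold change (horizontal axis, labelled GFP-ZFP36L1 over control) with its SE for the 12 NLR genes tested, the 5 members in red and the 7 others in grey. Values ran from -0.65 for Nlrc3 to 1.04 for Nlrp1b, and 7 of the 12 lay between -0.19 and 0.07.

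Levels of different genes were compared per kb of annotated exon (RPKM). In the controls the order was Ciita at 65.4 ± 4.54, Nlrc5 at 18.6 ± 1.46, Nlrc4 at 12.2 ± 0.681, Nod1 at 9.44 ± 0.924 and Nlrc3 at 6.35 ± 0.484 RPKM (SD, n = 4 each). Next came Naip5 at 3.6, Naip2 at 2.57, Nlrp10 at 1.96 and Naip6 at 1.32 RPKM. Nod2 at 0.541 ± 0.104 and Nlrx1 at 0.409 ± 0.0287 RPKM followed, and their ranges overlapped, at 0.390 to 0.622 and 0.381 to 0.440 RPKM. Ranges of Nlrc3 and Nod1 did not overlap in either group. In the labelled libraries Nod2 ran from 0.786 to 0.938 RPKM and no longer overlapped Nlrx1, at 0.396 to 0.580 RPKM. Nlrc3, at 3.72 to 4.19 RPKM in the labelled libraries, lay within the range of Naip5 there, 2.95 to 4.24 RPKM.

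**Figure D3:**
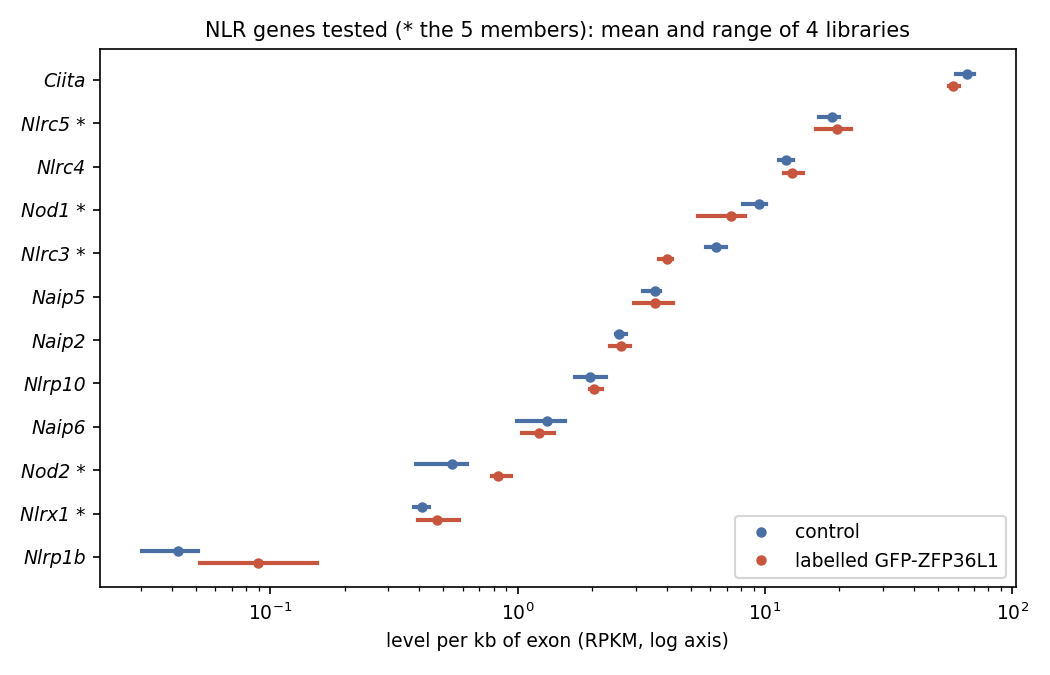
Level per kb of exon (RPKM, log axis) of the 12 NLR genes tested, with the mean as a point and the range of 4 libraries as a line, in blue for controls and red for labelled libraries. Members have an asterisk. Among them the ranges of the groups are apart for Nlrc3 and Nod2 and overlap for Nlrc5, Nlrx1 and Nod1.

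The 4 nearest tested genes of Nlrc3 on chromosome 16 did not pass the test. Slx4, a scaffold of DNA repair nucleases which lies 2473 bp away, had 74.2 ± 5.67 CPM in controls against 76.3 ± 5.81 in labelled libraries. Cluap1, a cilium assembly gene 3860 bp to the other side, had 12.6 ± 0.526 and 11.5 ± 0.979 CPM. The log2 fold changes of Slx4, Cluap1, Gm15539 and Gm15879, the nearest tested genes on the sides of Nlrc3, were 0.04, -0.14, 0.12 and -0.18, with adjusted p from 0.415 to 0.814. Nod2 lies 8554 bp from Cyld, a deubiquitinase that restrains NF-kB signalling and acts downstream of NOD2, and Cyld had 194 ± 8.29 CPM in controls against 196 ± 6.95 in labelled libraries.

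The genes around these sensors were described through 6 lists. Their counts stand against 3.12% of all tested genes called by edgeR, 6.89% by DESeq2 and 2.85% by limma voom, 7.90% called by edgeR with a linear term for the title number, and 17.3% at an unadjusted p under 0.05. For signalling by NOD1 and NOD2, 33 of 35 genes were tested and edgeR called 0, where 4 reached an unadjusted p under 0.05, with 1 called by DESeq2 and 0 by limma voom. With the title number term edgeR called 2 of the 33. The median log2 fold change of the 33 genes was -0.01. Xiap, a ubiquitin ligase needed for NOD2 signalling, had 157, 165, 171 and 168 CPM in controls against 184, 204, 176 and 197 in labelled libraries. The groups of Xiap did not overlap, as for 3 of the 33 genes and 6.24% of all tested genes in this direction. Its log2 fold change was 0.20 ± 0.06 (SE), and its adjusted p was 0.0831. Sharpin, a subunit of the linear ubiquitin ligase complex, had a log2 fold change of -0.16 ± 0.05 (SE). Ripk2, named for its role and not by the rule, had 33.3 ± 2.81 CPM in controls against 31.1 ± 3.76 in labelled libraries with a log2 fold change of -0.10 ± 0.09.

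For nucleic acid sensing, the list of NLRC3 and NLRX1 partners, all 20 genes were tested, 1 rose and 0 fell, with a median log2 fold change of 0.03 and 5 at an unadjusted p under 0.05. The gene that rose was Cgas, the cytosolic DNA sensor upstream of STING. Cgas had 2.84, 2.13, 2.19 and 1.92 CPM in controls against 4.24, 5.24, 4.63 and 3.80 in labelled libraries, so every labelled library was above every control. Its log2 fold change was 0.98 ± 0.15 (SE) and the adjusted p 0.0084, and it was called under all 15 alternatives. STING, listed as Tmem173, had 147 CPM in controls against 143 in labelled libraries, a log2 fold change of -0.04. The other 4 at an unadjusted p under 0.05 were not called. Ifih1, the RNA sensor MDA5, had a log2 fold change of 0.63 ± 0.17 (SE), without overlap between groups, Ikbke, a kinase of the pathway, 0.43 ± 0.14, and Dhx58, the RNA sensor LGP2, 0.31 ± 0.09. Trim25, a ubiquitin ligase of RNA sensing, had -0.24 ± 0.07, without overlap. Groups without overlap were found for 2 of the 20 genes as higher and 1 as lower. Over all tested genes the shares were 6.24% and 4.98%. Tbk1 and Traf6, a kinase and a ubiquitin ligase of these pathways, had 0.02 and -0.02. The number of called genes in this list was 5 with DESeq2, 5 with a linear term for the title number, 4 without labelled replicate 1, 2 with no filter or without control replicate 1, and 1 under the other alternatives.

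For the genes that NLRC5 activates, 15 of 15 were tested and edgeR called 0, with a median log2 fold change of -0.04, 3 at an unadjusted p under 0.05, and 0 called by DESeq2 and limma voom. With a linear term for the title number edgeR called 1 of the 15. Of the 15, 12 had a negative log2 fold change and 3 a positive one, from -0.24 to 0.15, where 52.1% of all tested genes were negative. The genes of this list share a regulator, so these signs are not independent. H2-K1, a classical MHC class I heavy chain, and B2m, its light chain, both named for their role, had -0.01 and 0.06. The members of this list with the smallest p were H2-M3, at 122 ± 5.34 and 110 ± 2.74 CPM, and H2-T23, at 478 ± 37.6 and 406 ± 41.2 CPM in controls and labelled libraries. The genes that CIITA activates all had negative log2 fold changes, 9 of 9 against 52.1% of all tested genes, with a median of -0.18. They share a regulator, so their signs are not independent, and 8 of 10 B cell markers were negative too. Cd74, H2-Aa and H2-Eb1 also fell with title number within both groups, while H2-Ob rose with it in the controls. The part of title number in these values was not tested. Groups without overlap were found for 2 of the 9 genes as lower, H2-Oa and H2-Ob, and for 0 as higher. The shares over all tested genes were 4.98% and 6.24%. By edgeR's quasi-likelihood test 0 of the 9 genes were called and 5 had an unadjusted p under 0.05, while DESeq2 called 2 and limma voom 0. With the title number term edgeR called 2. H2-Oa, an inhibitor of peptide loading, had 315 ± 11.6 and 276 ± 17.6 CPM, and H2-DMb1, a peptide-loading catalyst subunit, 249 ± 27.6 and 208 ± 21.1 CPM. Among 12 factors of MHC promoters edgeR, DESeq2 and limma voom each called 0, and 1 had an unadjusted p under 0.05. With the title number term edgeR called 1. The members with the smallest p there were Nfyc and Rfx5, with log2 fold changes of -0.17 ± 0.06 and -0.15 ± 0.09 (SE). In the inflammasome list 14 of 17 genes were tested. There edgeR with and without the title number term, DESeq2 and limma voom each called 0, and 0 had an unadjusted p under 0.05. Txnip and Casp8, its members with the smallest p, had -0.10 ± 0.08 and -0.05 ± 0.04 (SE).

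**Figure D4:**
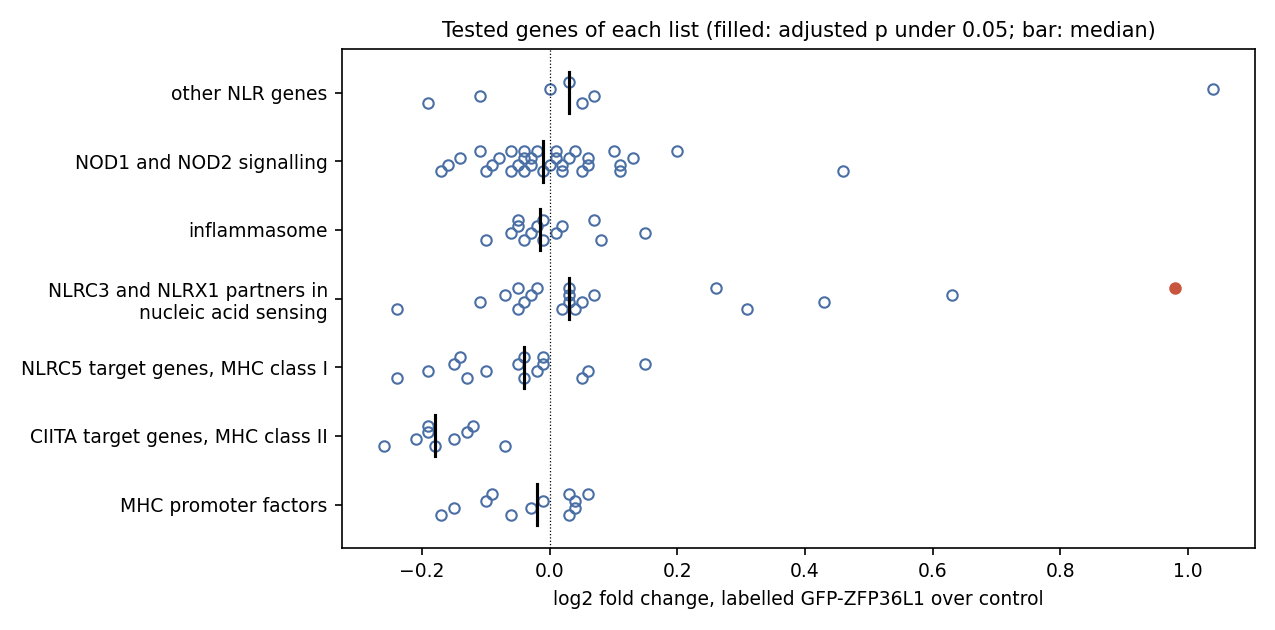
Log2 fold change (horizontal axis, labelled GFP-ZFP36L1 over control) of each tested gene in the list of other NLR genes and the 6 pathway lists. Bars are medians, from -0.18 for genes activated by CIITA to 0.03, and the filled point is Cgas at 0.98, the sole gene called.

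Nlrc3 is known from T cells, so T cell markers were set beside it. Of 20 such markers, 16 were under 1 CPM in every library and 5 were tested. Of these 5 edgeR called 0, with 2 at an unadjusted p under 0.05. Over all tested genes the shares were 3.12% and 17.3%. The defining genes Cd3d, Cd3e and Cd3g were at or near 0, with group means of at most 0.126 CPM. Their level was below 0.15 CPM in every library, while Nlrc3 was above 26 CPM in every library. The sum over the list was 36.8 to 41.4 CPM in controls against 39.9 to 42.5 in labelled libraries, and most of it was Lck, a kinase gene, at 32.5 ± 1.27 and 34.0 ± 0.431 CPM. Myeloid markers, of cells known for Nod1 and Nod2, summed to 11.6 to 13.2 CPM in controls against 10.9 to 13.2 in labelled libraries, with 12 of 16 under 1 CPM in every library. Of the 16, 7 were tested and 1 was called, Itgam, where 3.12% of all tested genes were called. Itgam had 1.96 ± 0.335 and 3.41 ± 0.725 CPM, with an adjusted p of 0.0395, and held this call in 1 of 8 fits without 1 library. Lyz2 had 0.756 ± 0.186 and 0.687 ± 0.133 CPM. The macrophage gene Adgre1 had 3.21 ± 0.574 and 1.73 ± 0.65 CPM and an adjusted p of 0.0815. Its groups did not overlap, as for 4.98% of all tested genes in this direction. The part of these genes in the Nod2 difference was not tested. Markers of NK cells summed to at most 4.24 CPM and of dendritic cells to at most 7.68 CPM in any library.

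The genes whose pattern over the 8 libraries was most like that of Nlrc3 were sought among 8207 protein-coding genes of at least 10 CPM, by Pearson's r of log2 CPM. They were Arid3b (0.984), Dclk2 (0.983), Phtf2 (0.976), Txndc16 (0.976), Tor1aip1 (0.974) and Rapgef4 (0.968). All 6 were lower in the labelled libraries, and these values include that shared group difference. Within groups r ran from 0.477 for Rapgef4 to 0.830 for Txndc16. Rapgef4, an exchange factor for Rap GTPases, had 63.4 ± 7.22 CPM in controls against 31.1 ± 2.81 in labelled libraries. The changes of Txndc16 and Tor1aip1 were small, at log2 fold changes of -0.13 and -0.16.

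Alternatives changed the members' values little apart from the libraries named above. In the authors' deposited table, the log2 fold changes were -0.59 for Nlrc3, 0.43 for Nod2, -0.28 for Nod1, 0.14 for Nlrx1 and 0.06 for Nlrc5. There Nod2 had an adjusted p of 0.00262, Nod1 one of 0.0567, Nlrx1 one of 0.574 and Nlrc5 one of 0.813, per the authors' deposited table. DESeq2 as run here gave larger values for every member, at -0.65, 0.62, -0.37, 0.21 and 0.07 in the same order. The settings of the authors' fit are not given, so these values may not be the same measure. A smaller effect of Nod2 is not read from them.

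**Figure D5:**
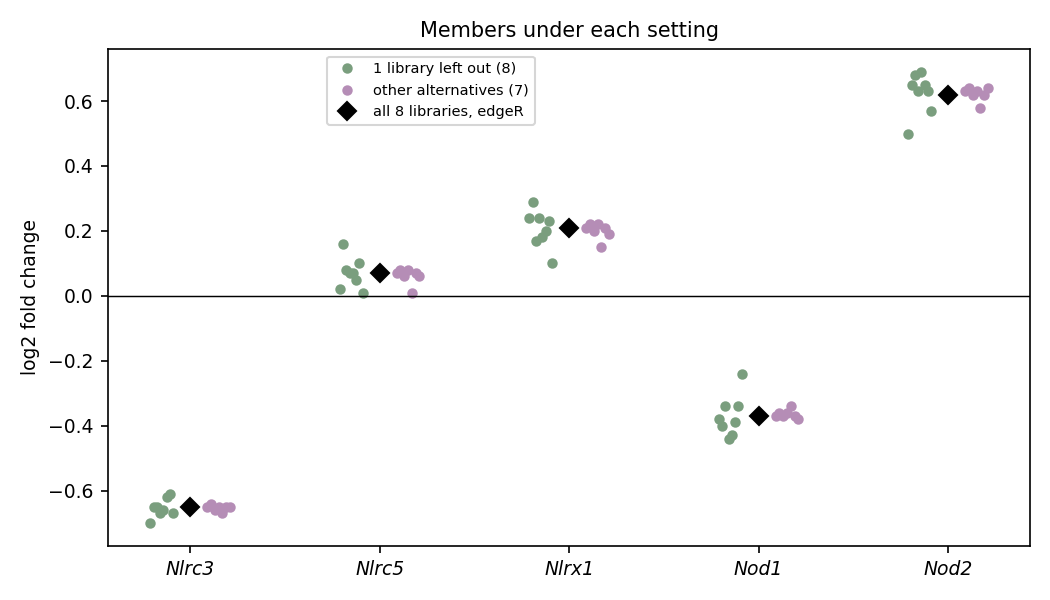
Log2 fold change (vertical axis) of each member with all 8 libraries (black diamonds), with 1 library left out (green) and under the other 7 alternatives (purple). Each member kept its sign, and Nod1 without labelled replicate 4, at -0.24, stood apart from its other values.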

How the data were processed

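The authors deposited raw counts per Ensembl gene, the basis of every test here. They also deposited a normalized signal per gene, equal to the count divided by 1 constant per library (relative departures of at most 5.71e-10, used for this check only). The authors' own comparison was deposited as another table, with a mean signal, log2 fold changes, p-values and 2 columns treated as scores (a signed fold change and a test statistic, not used). Per the labels, libraries came from a stranded mRNA kit, read as pairs of 100 bp. The submitters' processing notes list build GRCm38 and the tools HTSeq, TopHat2 2.0.12, DESeq2 1.10.1 and Trim Galore, without settings. Cells were sorted as B220, CD93, CD21 and CD23 positive, per the labels.

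Groups followed the genotype label, and replicates were numbered in accession order, which pairs no libraries. All 8 count columns were mapped by sample title. The tests used edgeR 4.0.16 under R 4.3.3, with filterByExpr, TMM factors and a robust quasi-likelihood test on group, with Benjamini-Hochberg adjustment over 13035 genes and a threshold of 0.05. Standard errors come from the F statistic. On simulated counts for these 13035 genes the fit called 92 of 100 genes changed 1.5-fold and 98 of 100 changed 2-fold, with 14 false calls. The changed genes were drawn only from levels above those of Nod2, Nlrx1, Cgas and Nlrp1b, so the recovery does not cover these genes. The simulation also held no trend with title number. Exon lengths, 3' UTRs (longest of the coding transcripts) and coordinates came from GENCODE mouse M21 on GRCm38, which may differ from the annotation used for counting. Alternatives were RLE and upper-quartile factors, DESeq2 1.42.0, limma voom 3.58.1, no filter, 1 CPM in 4 libraries, a linear term for the number in each sample title, and each library left out.

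The members and lists were chosen with earlier results of these data known. The text names the members, the other NLR genes that passed the filter, called genes of each pathway list or else its 2 genes with the smallest p, the 4 nearest tested genes of Nlrc3, the label checks and the 6 genes most like Nlrc3. Genes outside this rule (Ripk2, Tmem173, Tbk1, Traf6, H2-K1, B2m, Cyld and single marker genes) are named for their known role, after their values were seen. B cell, plasma cell and erythroid marker lists served as checks: plasma cell markers summed to 307 to 326 CPM in the controls and 322 to 352 CPM in the labelled libraries, and erythroid and platelet markers to 6.82 to 19.4 and 6.52 to 15.7 CPM. These sums hide single genes. The 5 plasma cell markers had log2 fold changes from -0.79 to 0.59, 3 negative and 2 positive. By edgeR 0 of the 5 were called and 3 had an unadjusted p under 0.05, against 3.12% and 17.3% of all tested genes.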

Additional observations from a re-analysis of the deposited data

Results flagged for a closer look

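In 3 of the 70 groups of 4 libraries checked over 35 genes, 1 library stood apart from the rest of its group, where chance flags about 1 group in 20. Naip5 had 16.7 CPM in control replicate 2, with the nearest control at 19.1 CPM. Sharpin had 130 CPM in labelled replicate 3, with the nearest labelled library at 121 CPM. Zfp36l1 had 599 CPM in control replicate 1, with the nearest control at 535 CPM. None of the 5 members was among them. The low Nod1 level of labelled replicate 4, at 27.1 CPM, did not reach the criterion.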

How the results depend on the processing

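The log2 fold changes of Nlrc3, Nlrc5, Nlrx1 and Nod1 kept their direction and their side of the threshold, or for Nlrc3 moved by less than the spread between libraries, under all 15 alternatives. With 1 library left out they ran from -0.70 to -0.61, 0.01 to 0.16, 0.10 to 0.29 and -0.44 to -0.24. Nod2 ran from 0.50 to 0.69 and lost its call in 7 of these 8 fits. It kept the call under each of the 7 other alternatives. The number of other NLR genes called was 0 with any library left out and 1, Ciita, with a linear term for the title number. Without labelled replicate 1, where 948 genes were called over all, edgeR called 1 gene of NOD1 and NOD2 signalling. It also called 1 gene each among the genes activated by NLRC5, those activated by CIITA and the MHC promoter factors. Over all genes 407 were called, against 1030 with a linear term for the title number, 882 with DESeq2, and 79 (without control replicate 3) to 948 (without labelled replicate 1) with 1 library left out. The cause was not tested. No paired analysis was possible because no label gives libraries of both groups a shared replicate number. Sample titles are numbered 1 to 8, alternating between the groups, but no label pairs neighbouring titles, so a block on them was not fitted. Depth limits Nod2, Nlrx1 and Nlrp1b, the members and relatives with the fewest counts.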
